A study of Mus musculus with 3 samples.

Results

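The interferon response genes described here are 41 mouse genes chosen by name from what is known of the pathway, with no threshold on their values here. All 41 were present in each of the 3 deposited tables, which together hold 17126 gene names. The cells are cardiac interstitial cells of adult mice, which were left when a low-speed spin after collagenase II digestion had removed the cardiomyocytes. They were sorted by flow cytometry with an antibody against Lin28, an RNA-binding protein sorted here by its signal at the cell surface, and on the receptor cKit. The 3 sorted groups were Lin28-/cKit-, Lin28+/cKit- and Lin28+/cKit+, each with 1 library made by droplet 3' single-cell sequencing (10x Chromium, v3.1 chemistry). The groups share the digestion and the sort, with no treatment stated and with strain, exact age, sex and animal numbers not given in the sources used here.

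Cells sense viral or misplaced nucleic acid with receptors such as the RIG-I-like helicases, which lead to secretion of type I interferons. These cytokines bind a receptor made of Ifnar1 and Ifnar2, and the kinases Jak1 and Tyk2 then activate a factor that holds Stat2 and Irf9 and switches on genes that carry an interferon-stimulated response element. Interferon gamma acts through its own receptor and favours gamma-activated sites and genes such as the guanylate-binding proteins. In the heart, macrophages and endothelium are both known to respond to type I interferon, and many of the genes also have a basal level without infection.

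The response element is a sequence that part of the members share, so it is shown for 6 that carry it and whose values are described below. A RefSeq table of promoters on GRCm38.p6, 250 bases before to 50 bases after each start, held 34 of the 41 members. The letters GAAA, any 2 bases, GAAA, searched on both strands and counted even where matches overlap, were found for 17 of those 34 genes (50%), against 3.99% of all 27025 genes in the table. By role, they were found for 5 of 6 GTPases and for 0 of 3 genes of the immunoproteasome and peptide transport, and for 4 of the 10 core genes in the table. The letters TTC, any 3 bases, GAA, the core of the gamma-activated site, were found for 11 of 34 (32.4%) against 9.55%. The 2 motifs may share bases, as in Bst2 and Ifitm3, and a match describes letters, not a bound site. Ifit2, Irf7 and Psmb8 were in the table and had no match to the first motif. In the windows below, written 5' to 3' on the strand of the gene, capitals mark the first motif or its reverse complement.
Isg15: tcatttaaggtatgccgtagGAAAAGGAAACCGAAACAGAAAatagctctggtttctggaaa
Ifit1: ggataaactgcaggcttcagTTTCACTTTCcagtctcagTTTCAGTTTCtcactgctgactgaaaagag
Ifit3: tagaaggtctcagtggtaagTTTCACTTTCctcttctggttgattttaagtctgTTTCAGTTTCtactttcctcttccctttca
Rsad2: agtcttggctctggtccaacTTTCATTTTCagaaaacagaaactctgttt
Oas1a: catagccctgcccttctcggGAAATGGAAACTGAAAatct
Irgm1: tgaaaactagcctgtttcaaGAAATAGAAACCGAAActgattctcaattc
The windows are at chr4:156200855-156200916 (minus strand, 98 to 37 bases before the start), chr19:34640765-34640833 (plus strand, 124 to 56 bases before the start) and chr19:34583353-34583436 (plus strand, 176 to 93 bases before the start). The others are at chr12:26456543-26456592 (minus strand, 140 to 91 bases before the start), chr5:120907526-120907565 (minus strand, 40 to 1 bases before the start) and chr11:48871421-48871470 (minus strand, 50 to 1 bases before the start). Isg15 showed 3 overlapping matches, Ifit1 and Ifit3 showed 2 separate ones, Oas1a and Irgm1 2 overlapping ones, and Rsad2 1.

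The Lin28-/cKit-, Lin28+/cKit- and Lin28+/cKit+ libraries held 3976, 681 and 1176 cells, with 34031955, 7401174 and 10400648 UMIs (unique molecular identifiers, each a captured transcript) and 8630, 9628 and 8068.5 UMIs in the median cell. Cell barcodes were shared by 0 to 8 cells between library pairs. Each cell was classed by marker sets, with 10 genes each for the 3 main classes. The median endothelial-like or macrophage-like cell had a UMI for 9 of the 10 markers of its own set, and the median fibroblast-like cell for 10. Markers of another of these classes summed to between 0.723% and 3.94% of their level in their own class, where the library held that class. The classes with at least 50 cells were fibroblast-like cells in Lin28-/cKit- (2793), endothelial-like cells in the 3 libraries (867, 255 and 458) and macrophage-like cells in Lin28+/cKit- and Lin28+/cKit+ (321 and 643). Lin28-/cKit- held 18 macrophage-like cells and the Lin28+ libraries 32 and 10 fibroblast-like cells, too few to compare. Cells left without a class made up 5.33%, 5.73% and 4% of the libraries, and 3.09%, 2.20% and 3.23% of cells lay near the limit between 2 main classes, with a second set at 0.4 to 0.6 of the first. With 1 library per group there was no replicate and no test. Every interval below is a 95% interval for counting error only, except the range given with a median, which is explained where it is first used below.

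Levels are CPM, counts per 1000000 UMIs, of the UMIs summed over the cells of a class in a library. They are given in 1 order throughout: fibroblast-like cells of Lin28-/cKit-, then endothelial-like cells of Lin28-/cKit-, Lin28+/cKit- and Lin28+/cKit+, then macrophage-like cells of Lin28+/cKit- and Lin28+/cKit+. A gene was compared between groups by the ratio of its CPM where it had at least 20 UMIs over both sides. A gene was called higher or lower when the ratio was at least 1.5 in either direction and its interval left out 1.

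Summed over the 41 genes without Ifitm3, the level was 783 CPM in fibroblast-like cells, 1915, 1927 and 2008 CPM in endothelial-like cells and 1330.0 and 1343 CPM in macrophage-like cells. Endothelial-like cells had the highest sum in each library. Ifitm3, a membrane protein that blocks virus entry, alone held 66.8% of the members' UMIs in fibroblast-like cells, 41.3% to 43.8% in endothelial-like cells and 30.4% to 33.4% in macrophage-like cells. A narrower core of 12 genes that are known for strong induction by type I interferon (Isg15, Ifit1, Ifit2, Ifit3, Rsad2, Cmpk2, Irf7, Usp18, Oasl1, Oasl2, Rtp4 and Ifi44) summed to 62.3 CPM in fibroblast-like cells, 256, 258 and 288 CPM in endothelial-like cells, and 182 and 279 CPM in macrophage-like cells. The plot of levels by class and library shows the 41 genes on that scale.

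**Figure D1:**
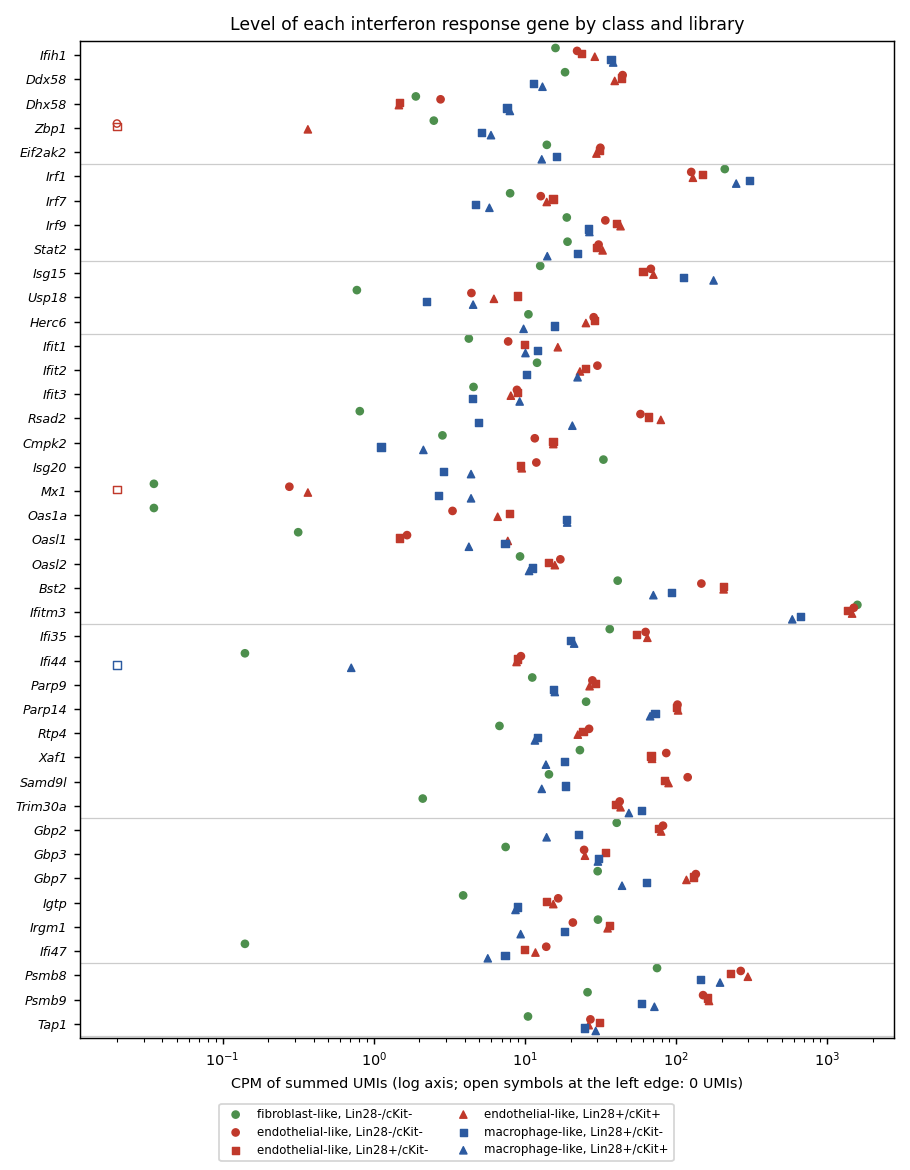
CPM of summed UMIs on a log axis for each of the 41 genes, with 1 symbol per class and library and open symbols at the left edge for 0 UMIs; grey lines part the role groups. Fibroblast-like cells lie left of endothelial-like cells for most genes, as for Rsad2 at 0.808 CPM against 58.0 CPM in endothelial-like cells of Lin28-/cKit-. Irf1, Isg20, Zbp1 and Ifitm3 lie the other way. Against macrophage-like cells the side differs from gene to gene.

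Among the nucleic acid sensors, some had more transcript in macrophage-like and others in endothelial-like cells. Zbp1, which recognises Z-form nucleic acid and can start necroptosis, stood at 2.49 CPM in fibroblast-like cells, 0, 0 and 0.366 CPM in endothelial-like cells, and 5.14 and 5.96 CPM in macrophage-like cells. Its UMIs numbered 71, then 0, 0 and 1, then 23 and 42, so it was near 0 in endothelial-like cells of every library, where the upper bounds of the exact Poisson intervals around 0 were 1.02 CPM in Lin28-/cKit- and 1.82 CPM in Lin28+/cKit-. Dhx58 (LGP2), a helicase that tunes RNA sensing, stood at 1.90 CPM in fibroblast-like cells, 2.76, 1.48 and 1.47 CPM in endothelial-like cells, and 7.60 and 7.94 CPM in macrophage-like cells. It was called higher in macrophage-like than in endothelial-like cells, with ratios of 5.12 (1.61 to 26.1) in Lin28+/cKit- and 5.42 (2.00 to 20.6) in Lin28+/cKit+. Ddx58, which encodes the RNA sensor RIG-I, went the other way at 18.4 CPM in fibroblast-like cells, 44.2, 43.5 and 39.2 CPM in endothelial-like cells, and 11.4 and 13 CPM in macrophage-like cells. Its macrophage-to-endothelial ratios were 0.262 (0.182 to 0.374) and 0.333 (0.249 to 0.444). Ifih1 (MDA5), the sensor of long double-stranded RNA, stood at 15.9 CPM in fibroblast-like cells, 22.1, 23.7 and 28.9 CPM in endothelial-like cells, and 37.1 and 38.3 CPM in macrophage-like cells, lowest in fibroblast-like and highest in macrophage-like cells. Eif2ak2 (PKR), the RNA-activated kinase that halts translation, stood at 13.9 CPM in fibroblast-like cells, 31.5, 31.1 and 29.7 CPM in endothelial-like cells, and 16.1 and 12.9 CPM in macrophage-like cells, highest in endothelial-like cells.

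Among the transcription factors, Irf1, an early factor with a high basal level, was an exception to the low fibroblast values. It stood at 209.6 CPM in fibroblast-like cells, 126, 149.8 and 129 CPM in endothelial-like cells, and 304 and 249.5 CPM in macrophage-like cells. The endothelial-like values were the 3 lowest and the macrophage-like values the 2 highest. Irf7, the factor that amplifies type I interferon production, stood at 7.97 CPM in fibroblast-like cells, 12.7, 15.3 and 13.9 CPM in endothelial-like cells, and 4.69 and 5.82 CPM in macrophage-like cells. Irf7 was called lower in macrophage-like than in endothelial-like cells of both Lin28+ libraries, with ratios of 0.306 (0.167 to 0.550) and 0.418 (0.262 to 0.667). Irf9 and Stat2, partners in the factor that binds the response element, ranged over 18.9 to 42.9 CPM and 14 to 32.6 CPM. Both were highest in endothelial-like cells of Lin28+/cKit+.

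Isg15, a ubiquitin-like modifier, was the core gene called higher in macrophage-like than in endothelial-like cells of both Lin28+ libraries. It stood at 12.6 CPM in fibroblast-like cells, 68.0, 60.3 and 70.7 CPM in endothelial-like cells, and 112 and 177 CPM in macrophage-like cells, with counting intervals of 102 to 122 CPM and 167 to 187 CPM for the macrophage-like values. A UMI of Isg15 was found in 8.52% of fibroblast-like cells, in 16.1%, 21.6% and 20.5% of endothelial-like cells and in 35.5% and 42.8% of macrophage-like cells. The median depths behind these shares were 10155 UMIs, then 3909, 7620 and 5312, then 12580 and 9639. After each cell was thinned to 1000 UMIs the shares were 1.45%, then 5.32%, 4.10% and 5.01%, then 9.09% and 11.1%, so the order of the classes was the same. Usp18, which removes ISG15 from proteins and damps the receptor, stood at 0.773 CPM in fibroblast-like cells, 4.42, 8.90 and 6.23 CPM in endothelial-like cells, and 2.23 and 4.54 CPM in macrophage-like cells. Herc6, the mouse ligase for ISG15, stood at 10.5 CPM in fibroblast-like cells, 28.5, 28.7 and 25.3 CPM in endothelial-like cells, and 15.6 and 9.79 CPM in macrophage-like cells. Usp18 was lowest in fibroblast-like cells and Herc6 in macrophage-like cells of Lin28+/cKit+, and both were highest in endothelial-like cells of Lin28+/cKit-.

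Rsad2 (viperin), a radical enzyme that makes a chain terminator of viral RNA, was mainly a transcript of endothelial-like cells. It stood at 0.808 CPM in fibroblast-like cells, 58.0, 65.2 and 79.1 CPM in endothelial-like cells, and 4.92 and 20.6 CPM in macrophage-like cells. A UMI was found in 14.4%, 20.8% and 18.6% of endothelial-like cells, against 0.752% of the deeper fibroblast-like and 2.80% and 2.80% of macrophage-like cells; thinned to 1000 UMIs the endothelial-like shares were 5.67%, 4.51% and 6.15%, and the other shares were under 1%. Ifi44, a cytoplasmic antiviral protein, stood at 0.140 CPM in fibroblast-like cells, 9.40, 8.90 and 8.79 CPM in endothelial-like cells, and 0 and 0.709 CPM in macrophage-like cells, with 0 UMIs in the 321 macrophage-like cells of Lin28+/cKit-, for which the upper bound of the exact Poisson interval was 0.824 CPM. Cmpk2, the mitochondrial nucleotide kinase next to Rsad2 in the genome, stood at 2.84 CPM in fibroblast-like cells, 11.6, 15.3 and 15.4 CPM in endothelial-like cells, and 1.12 and 2.13 CPM in macrophage-like cells. Rsad2, Ifi44 and Cmpk2 were called lower in fibroblast-like and macrophage-like than in endothelial-like cells in each comparison in which they had 20 UMIs. All 5 Ifi44 UMIs of macrophage-like cells of Lin28+/cKit+ lay in 1 cell, the one described below with all 12 core genes.

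The IFIT genes, whose proteins bind viral RNA ends, did not follow that order. Ifit1 stood at 4.25 CPM in fibroblast-like cells, 7.74, 9.89 and 16.5 CPM in endothelial-like cells, and 12.1 and 10.1 CPM in macrophage-like cells. Ifit2 stood at 12 CPM in fibroblast-like cells, 30.1, 25.2 and 23.1 CPM in endothelial-like cells, and 10.3 and 22.3 CPM in macrophage-like cells. Ifit3 stood at 4.57 CPM in fibroblast-like cells, 8.84, 8.90 and 8.06 CPM in endothelial-like cells, and 4.47 and 9.22 CPM in macrophage-like cells. Ifit3 is uncertain, since its near copy Ifit3b can share its reads. For each of the 3 genes the fibroblast-like value was below those of endothelial-like cells. The macrophage-like values fell below or inside the endothelial-like range, except Ifit3 in Lin28+/cKit+. That value stood at 2.56 CPM without the 1 cell that held 47 of its 65 UMIs. The top of the Ifit1 range, 16.5 CPM in endothelial-like cells of Lin28+/cKit+, came from 45 UMIs, of which 21 lay in 1 arterial-type cell. The other endothelial-like Ifit1 values, 7.74 and 9.89 CPM, were below the 12.1 CPM of macrophage-like cells of Lin28+/cKit-.

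The remaining antiviral effectors also differed in the class with the most transcript. Oas1a, a synthase of the messenger that activates RNase L and one of a cluster of near copies, stood at 0.0351 CPM in fibroblast-like cells, 3.32, 7.91 and 6.60 CPM in endothelial-like cells, and 18.8 and 19.0 CPM in macrophage-like cells. Oasl1, a related protein without that activity, stood at 0.316 CPM in fibroblast-like cells, 1.66, 1.48 and 7.69 CPM in endothelial-like cells, and 7.38 and 4.26 CPM in macrophage-like cells. Mx1, a dynamin-like GTPase, stood at 0.0351 CPM in fibroblast-like cells, 0.276, 0 and 0.366 CPM in endothelial-like cells, and 2.68 and 4.40 CPM in macrophage-like cells. Mx1 numbered 1 UMI in fibroblast-like cells, 1, 0 and 1 in endothelial-like cells and 12 and 31 in macrophage-like cells, so Oas1a and Mx1 were highest in macrophage-like cells. Bst2 (tetherin), which holds budding virus at the membrane, stood at 41 CPM in fibroblast-like cells, 147, 205 and 206 CPM in endothelial-like cells, and 93.0 and 70.6 CPM in macrophage-like cells. Ifitm3 stood at 1579 CPM in fibroblast-like cells, 1496, 1355 and 1457 CPM in endothelial-like cells, and 667 and 586 CPM in macrophage-like cells, lowest in macrophage-like cells of both libraries. Isg20, an exonuclease, stood at 33.0 CPM in fibroblast-like cells, 11.9, 9.39 and 9.53 CPM in endothelial-like cells, and 2.91 and 4.40 CPM in macrophage-like cells, highest in fibroblast-like cells. Oasl2, which still has synthase activity, stood at 9.27 CPM in fibroblast-like cells, 17.1, 14.3 and 15.8 CPM in endothelial-like cells, and 11.2 and 10.6 CPM in macrophage-like cells.

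The other induced genes had less transcript in fibroblast-like than in endothelial-like cells. Their 8 ratios of fibroblast-like to endothelial-like cells in Lin28-/cKit- were all called lower, with a median log2 ratio of -1.99 (-2.26 to -1.76); the interval of a median is that between the medians of the genes' lower and upper bounds. Samd9l, an inhibitor of translation and growth, stood at 14.4 CPM in fibroblast-like cells, 119, 83.5 and 89.0 CPM in endothelial-like cells, and 18.5 and 12.9 CPM in macrophage-like cells. Trim30a, a ubiquitin ligase that damps Toll-like receptor signalling, stood at 2.11 CPM in fibroblast-like cells, 42.3, 39.5 and 42.9 CPM in endothelial-like cells, and 59.0 and 48.7 CPM in macrophage-like cells, lowest in fibroblast-like cells. Xaf1 (a partner of the apoptosis inhibitor XIAP) and Rtp4 (a chaperone that also binds viral RNA) were highest in endothelial-like cells of Lin28-/cKit-, at 86.0 and 26.5 CPM. Ifi35, Parp9 and Parp14 were also called lower in macrophage-like than endothelial-like cells of both Lin28+ libraries, except Parp14 in Lin28+/cKit-, where the ratio was 0.718 (0.601 to 0.860).

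Of the GTPases that interferon gamma induces against intracellular microbes, Gbp2 stood at 40.4 CPM in fibroblast-like cells, 81.8, 76.1 and 79.5 CPM in endothelial-like cells, and 22.6 and 13.9 CPM in macrophage-like cells. The immunity-related GTPase Irgm1, which regulates others of its family, stood at 30.4 CPM in fibroblast-like cells, 20.7, 36.1 and 35.2 CPM in endothelial-like cells, and 18.3 and 9.36 CPM in macrophage-like cells. Ifi47, another of that family, stood at 0.140 CPM in fibroblast-like cells, 13.8, 9.89 and 11.7 CPM in endothelial-like cells, and 7.38 and 5.67 CPM in macrophage-like cells. Irgm1 had a higher value in fibroblast-like than in endothelial-like cells of Lin28-/cKit-, without a call at 1.47 (1.16 to 1.88), while Ifi47 had 4 UMIs in all fibroblast-like cells. Igtp, also a member of the family, ranged from 3.90 CPM in fibroblast-like to 16.6 CPM in endothelial-like cells of Lin28-/cKit-. Gbp3 was 7.45 CPM in fibroblast-like cells and between 24.6 and 34.1 CPM in the other groups, and Gbp7 between 30.2 and 135 CPM. The Gbp genes form a family of close copies, so reads can be split between them. Psmb8, a catalytic subunit of the immunoproteasome, which cuts peptides for MHC class I, stood at 74.7 CPM in fibroblast-like cells, 267, 229.8 and 298 CPM in endothelial-like cells, and 145 and 195 CPM in macrophage-like cells. Psmb9, another such subunit, was between 25.9 and 165 CPM and Tap1, which carries the peptides into the endoplasmic reticulum, between 10.5 and 31.1 CPM, each lowest in fibroblast-like cells.

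Within Lin28-/cKit-, fibroblast-like cells had less of most members than endothelial-like cells. Of the 38 genes measured, 31 were called lower and 3 higher, against 24.8% and 22.2% of all 12795 genes measured. The median log2 ratio was -1.35 (-1.68 to -1.01), against -0.06 over all genes. The 11 core genes measured were all called lower, with a median of -1.97 (-2.33 to -1.46). The lowest ratios were those of Ifi47 at 0.0102 (0.00267 to 0.0277), Rsad2 at 0.0139 (0.00863 to 0.0215) and Ifi44 at 0.0150 (0.00385 to 0.0419). The 3 genes called higher were Irf1 at 1.67 (1.51 to 1.84), Isg20 at 2.78 (2.05 to 3.86) and Zbp1, with 71 UMIs against 0. Isg15 had a ratio of 0.185 (0.157 to 0.219), Ifit1 of 0.549 (0.362 to 0.861), Ifit3 of 0.516 (0.348 to 0.786), Bst2 of 0.28 (0.252 to 0.310), and Psmb8 of 0.28 (0.259 to 0.302). Ifitm3, at 1.06 (1.03 to 1.09), was called neither. Irf7 had a ratio of 0.627 (0.455 to 0.881). Fibroblast markers summed to 2271 CPM in the endothelial-like cells, 3.94% of their level in fibroblast-like cells; their part in the ratios was not tested.

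Macrophage-like cells also had lower levels of most members than endothelial-like cells of the same library, though less uniformly. In Lin28+/cKit-, 22 of 39 genes measured were called lower and 7 higher, beside 34.8% and 19.9% of all genes measured. The median log2 ratio was -0.92 (-1.34 to -0.39) against -0.33 over all genes. In Lin28+/cKit+, 26 of 41 were called lower and 6 higher, beside 38% and 19.9% of all genes, with medians of -0.85 (-1.39 to -0.34) and -0.38. With totals scaled by the median of ratios in place of the UMI totals, the split was 16 lower and 8 higher in Lin28+/cKit- and 17 lower and 10 higher in Lin28+/cKit+, beside 21.8% lower and 28% higher of all genes in the first library and 23.1% and 28.7% in the second. The lowest called ratios were Cmpk2 at 0.0729 (0.0221 to 0.189), Rsad2 at 0.0754 (0.0457 to 0.119) and Samd9l at 0.222 (0.169 to 0.290) in Lin28+/cKit-, and Ifi44 at 0.0806 (0.0240 to 0.216), Cmpk2 at 0.138 (0.0712 to 0.254) and Samd9l at 0.145 (0.113 to 0.185) in Lin28+/cKit+. Genes called higher in macrophage-like cells of both libraries were Zbp1, Dhx58, Oas1a, Irf1 and Isg15. Isg15 had ratios of 1.85 (1.52 to 2.28) and 2.5 (2.15 to 2.92), Irf1 of 2.03 (1.79 to 2.31) and 1.93 (1.72 to 2.18), and Oas1a of 2.37 (1.38 to 4.34) and 2.88 (1.76 to 5.01). Zbp1 had 23 UMIs against 0 in Lin28+/cKit- and 42 against 1 in Lin28+/cKit+. Oasl1, at 4.97 (1.56 to 25.3), and Ifih1, at 1.56 (1.13 to 2.20), were called higher in Lin28+/cKit-, and Mx1 in Lin28+/cKit+, with 31 UMIs against 1. Whether these differ between the libraries was not tested. Bst2 had ratios of 0.453 and 0.343, Ifitm3 of 0.492 and 0.402, and Psmb8 of 0.632 and 0.655, each called lower. Ifit1 had ratios of 1.22 (0.719 to 2.15) and 0.611 (0.415 to 0.908) and Ifit3 of 0.502 (0.252 to 1.01) and 1.14 (0.696 to 1.95). In Lin28+/cKit+ 1 endothelial-like cell held 21 of 45 Ifit1 UMIs, and 1 macrophage-like cell held 47 of 65 Ifit3 UMIs. The plot of ratios between classes gives every gene with its interval.

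**Figure D2:**
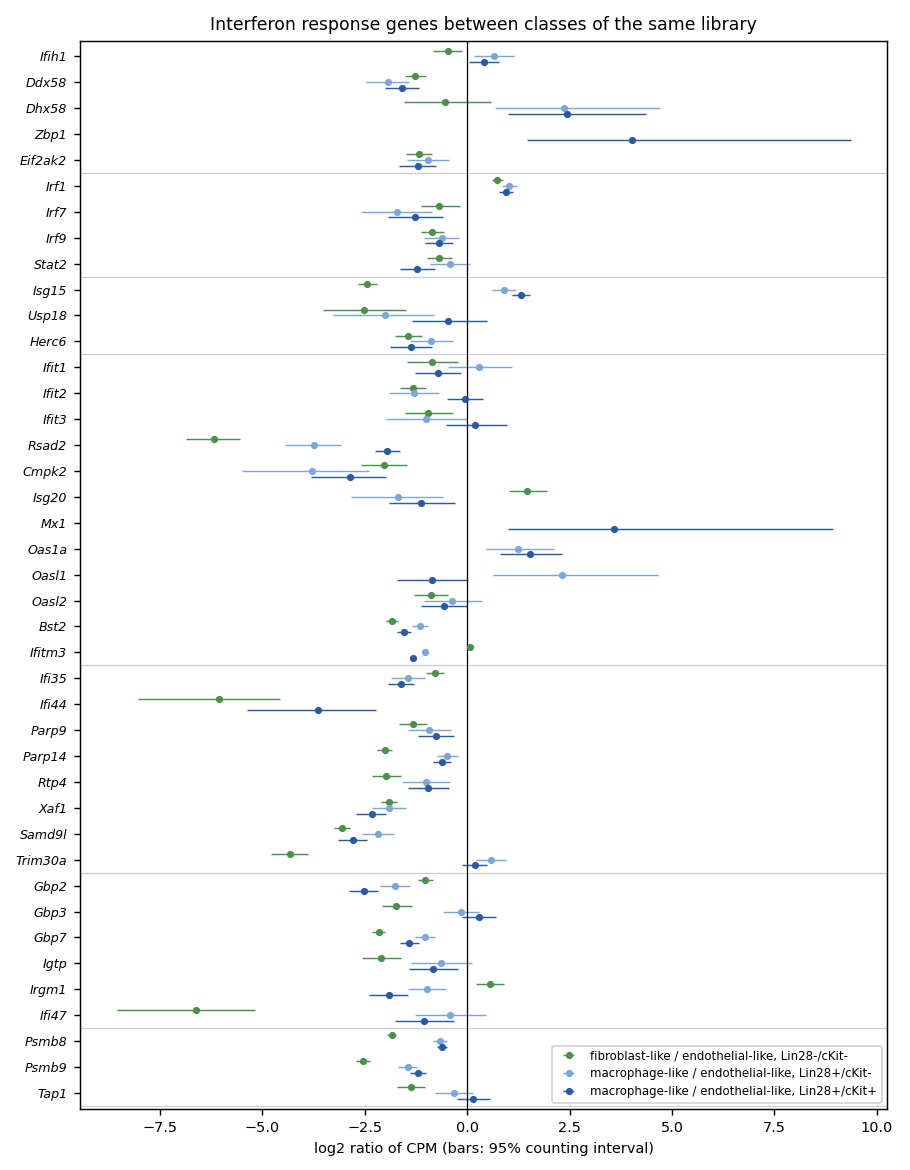
log2 ratio of CPM between classes of the same library, with 95% counting intervals, for genes with at least 20 UMIs over both sides and at least 1 on each; the black line marks equal levels. Most points lie left of the line, towards endothelial-like cells, and Irf1 lies right of it in all 3 comparisons, at log2 ratios of 0.74, 1.02 and 0.95.

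Over whole libraries the first sort step, surface Lin28 among cKit- cells, came with a higher level of many members. In Lin28+/cKit- against Lin28-/cKit-, 20 of 40 genes measured were called higher and 2 lower, beside 22.1% and 25.4% of all genes. The median log2 ratio was 0.61 (0.29 to 0.99), against -0.08 over all genes. Over all cells of the 3 libraries Isg15 stood at 20, 85.3 and 141 CPM, Oas1a at 0.470, 14.2 and 14.8 CPM and Trim30a at 7.70, 49.2 and 46.1 CPM, and the ratios of the second value to the first were 4.26 (3.82 to 4.75), 30.2 (17.7 to 54.7) and 6.39 (5.44 to 7.52). Oasl1 stood at 0.5, 5 and 5 CPM, with a ratio of 10 (5.50 to 19.0). The genes called lower were Isg20, at 29.4, 6.35 and 5.87 CPM and a ratio of 0.216 (0.158 to 0.290), and Ifitm3, at 1546, 928 and 851 CPM and a ratio of 0.6 (0.585 to 0.616). Bst2 stood at 55.4, 128 and 112 CPM, Psmb8 at 103, 162 and 225 CPM and Ifit1 at 4.97, 10.3 and 12.2 CPM, each called higher in Lin28+/cKit-, while Irf7, at 8.67, 7.43 and 8.36 CPM, and Ifit3, at 5.11, 5.40 and 8.65 CPM, were called neither. Make-up differed between these libraries: 70.2% of Lin28-/cKit- cells were fibroblast-like and 0.453% macrophage-like, against 4.70% and 47.1% in Lin28+/cKit-. In a sum over a whole library, the number of cells of a class and the RNA per cell cannot be told apart.

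Within endothelial-like cells, the class present in each library, the same step left nearly all members within 1.5-fold or within counting error. Only Irgm1 and Oas1a were called higher and none lower of 37 measured, beside 3.85% and 4.64% of all genes. Irgm1 rested on 73 against 75 UMIs, with a ratio of 1.74 (1.24 to 2.44), and Oas1a on 16 against 12, with a ratio of 2.38 (1.06 to 5.52). The median log2 ratio was -0.02 (-0.44 to 0.44), against -0.03 over all genes. Isg15 had a ratio of 0.887 (0.708 to 1.11), Ifit1 of 1.28 (0.682 to 2.35), Ifit3 of 1.01 (0.532 to 1.85) and Irf7 of 1.21 (0.739 to 1.94), all with intervals that include 1. Bst2, at 1.40 (1.23 to 1.59), Ifitm3, at 0.906 (0.865 to 0.949), and Psmb8, at 0.860 (0.768 to 0.962), had intervals that leave out 1 and ratios under the limit for a call.

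The second sort step, surface cKit among Lin28+ cells, moved few members. Between whole libraries 4 of 41 were called higher in Lin28+/cKit+ and 1 lower, beside 1.77% and 8.02% of all genes. The 4 were Rsad2, at 7.93, 21.2 and 35.6 CPM in the 3 libraries and a ratio of 1.68 (1.39 to 2.03), Isg15 with 1.66 (1.51 to 1.82), Ifit3 with 1.60 (1.09 to 2.39) and Ifit2 with 1.54 (1.22 to 1.96), and Irgm1 was the one called lower, at 28.8, 25.1 and 16.7 CPM and a ratio of 0.666 (0.538 to 0.823). Without the richest core cell of each library Rsad2, Ifit3 and Ifit2 were not called. The call of Irgm1 was lost under either other scaling, with means over cells and with a pseudocount of 1 CPM. In endothelial-like cells 1 of 38 was called higher and 0 lower, beside 3.13% and 3.61% of all genes. That gene was Oasl1, with 21 against 3 UMIs and a ratio of 5.19 (1.55 to 27.2). Of the 21 UMIs 14 lay in 1 arterial-type cell, and without the cell richest in core UMIs on each side no member was called. Isg15 had a ratio of 1.17 (0.930 to 1.48), Ifit1 of 1.67 (0.965 to 2.98), Ifit3 of 0.906 (0.464 to 1.79), Irf7 of 0.909 (0.551 to 1.51) and Bst2 of 1.00 (0.883 to 1.14), all with intervals that include 1, while Ifitm3, at 1.08 (1.02 to 1.13), and Psmb8, at 1.30 (1.16 to 1.46), were above 1 and under the limit. The median log2 ratios over members were 0.01 (-0.32 to 0.42) for whole libraries and 0.02 (-0.47 to 0.52) for endothelial-like cells.

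In macrophage-like cells the same step gave calls in both directions. Of 40 genes measured, 4 were called higher in Lin28+/cKit+ and 5 lower, beside 2.02% and 4.55% of all genes, and the median log2 ratio was 0.00 (-0.45 to 0.45) against -0.08. The split depended on the setting. It was 5 higher and 2 lower under median-of-ratios scaling, beside 3.04% and 2.71% of all genes. With means over cells it was 7 higher and 1 lower, and the share of all genes was not computed. Rsad2 had 145 against 22 UMIs and a ratio of 4.18 (2.66 to 6.88), Ifit2 157 against 46 and 2.17 (1.55 to 3.08), and Ifit3 65 against 20 and 2.06 (1.23 to 3.60). Isg15, the fourth, had 1246 against 500 UMIs and a ratio of 1.58 (1.42 to 1.76). Genes called lower were Irgm1 at 0.511 (0.364 to 0.715), Oasl1 at 0.577 (0.340 to 0.976), Gbp2 at 0.616 (0.462 to 0.821), Herc6 at 0.626 (0.442 to 0.885) and Stat2 at 0.635 (0.475 to 0.847). Psmb8 at 1.34 (1.22 to 1.48), Ifitm3 at 0.878 (0.838 to 0.921) and Bst2 at 0.760 (0.666 to 0.868) had intervals that leave out 1 without reaching the limit for a call, and Ifit1 at 0.834 (0.578 to 1.21) and Irf7 at 1.24 (0.716 to 2.21) had intervals that include 1.

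For some of these genes 1 cell carried most of the UMIs. A single macrophage-like cell of Lin28+/cKit+, of the inflammatory subtype and with 15826 UMIs, had a UMI for 40 of the 41 members and for all 12 core genes. It held 619 UMIs of the members, 413 of them from core genes, which is 21.0% of the core UMIs of the 643 macrophage-like cells and 14.5% of those of the whole library. It held 116 of the 145 Rsad2 UMIs of its class (80%), 47 of 65 for Ifit3 (72.3%), 10 of 15 for Cmpk2 (66.7%), 15 of 31 for Mx1 (48.4%) and 46 of 157 for Ifit2 (29.3%), but 129 of 1246 for Isg15 (10.4%). All 10 macrophage markers had a UMI in this cell, with 4 endothelial and 0 fibroblast markers, and the second marker set stood at 0.142 of the first. Whether the droplet held more than 1 cell was not tested. Without it, and without the macrophage-like cell richest in core UMIs in Lin28+/cKit-, 2 of 39 members measured were called higher and 8 lower, beside 2.23% and 4.57% of all genes in that setting, the further ones called lower being Ifit1, Ifi47 and Gbp7. Rsad2 then had a ratio of 0.831 (0.461 to 1.52), Ifit3 of 0.568 (0.283 to 1.13), Ifit2 of 1.52 (1.07 to 2.20) and Isg15 of 1.61 (1.44 to 1.81). Of the 4 genes called higher, Isg15 and Ifit2 were still called so in that setting and Rsad2 and Ifit3 were not. The cell left out of Lin28+/cKit- held 63 of the 500 Isg15 UMIs there. With the cell of the most member UMIs left out on each side instead, 1 of 39 members was called higher. The cells left out in that setting held 129 Isg15 and 46 Ifit2 UMIs in Lin28+/cKit+, and 18 and 9 in Lin28+/cKit-. Isg15 then fell under the limit for a call and Ifit2 kept its call. The share of all genes was not computed in that setting.

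**Figure D3:**
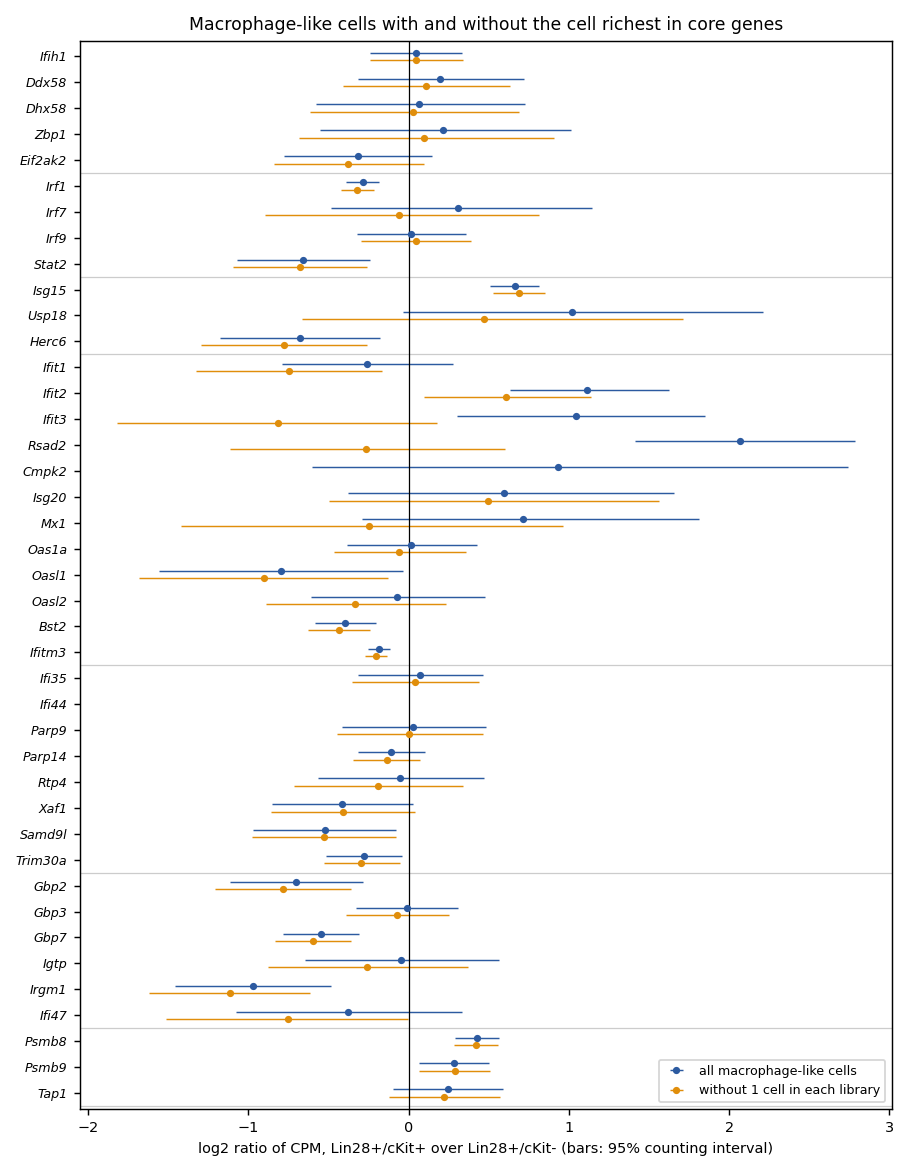
log2 ratio of CPM in macrophage-like cells, Lin28+/cKit+ over Lin28+/cKit-, with 95% counting intervals, for all cells (blue) and without the 1 cell of each library with the most core UMIs (orange); genes below 20 UMIs in a setting have no point. Rsad2 and Ifit3 move from log2 ratios of 2.06 and 1.04 to -0.27 and -0.82, while Isg15 is at 0.66 and 0.69. The cells left out held 129 Isg15 UMIs in Lin28+/cKit+ and 63 in Lin28+/cKit-.

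The richest cells of the other libraries were less extreme. In Lin28+/cKit- the cell with the most member UMIs was a resident-type macrophage-like cell of 40969 UMIs with 268 member UMIs, 128 of them Ifitm3, and 8 core genes. The cell of that library with the most core UMIs was another macrophage-like cell, with 63 Isg15 UMIs among 64 core UMIs. In Lin28-/cKit- the cell with the most member UMIs was fibroblast-like, with 9789 UMIs, 111 member UMIs and 8 core genes. Among endothelial-like cells of Lin28+/cKit+, an arterial-type cell of 7104 UMIs held 120 of 785 core UMIs (15.3%), with 38 of Rsad2, 31 of Isg15, 21 of Ifit1 and 14 of Oasl1. Among endothelial-like cells of Lin28+/cKit-, the richest cell was capillary-type and had a UMI for 11 of the 12 core genes, with 49 core UMIs.

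The share of a gene's UMIs held by its richest cell summarises this over all members. Among members with at least 10 UMIs in a class, the median share was 1.21% in fibroblast-like cells, 3.68%, 6.60% and 4.84% in endothelial-like cells and 5.88% and 5.97% in macrophage-like cells. The classes held between 255 and 2793 cells, and such a share is larger for the same spread where cells are few. The smallest set of cells holding 50% of a member's UMIs was also taken as a percent of the class. Its median over members was 4.51% in fibroblast-like cells, 3.92%, 6.27% and 5.57% in endothelial-like cells and 4.67% and 4.28% in macrophage-like cells. By that measure the classes were closer together. The richest cell held at least 20% of the UMIs for 0 of 36 members in fibroblast-like cells, for 0 of 38, 3 of 37 and 3 of 38 in endothelial-like cells and for 6 of 39 and 9 of 40 in macrophage-like cells. Genes with a broad level had small shares in each class, as for Ifitm3, Psmb8, Irf1 and Bst2. In macrophage-like cells of Lin28+/cKit+, these 4 had 1.38%, 3.20%, 2.05% and 3.01% of their UMIs in 1 cell.

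**Figure D4:**
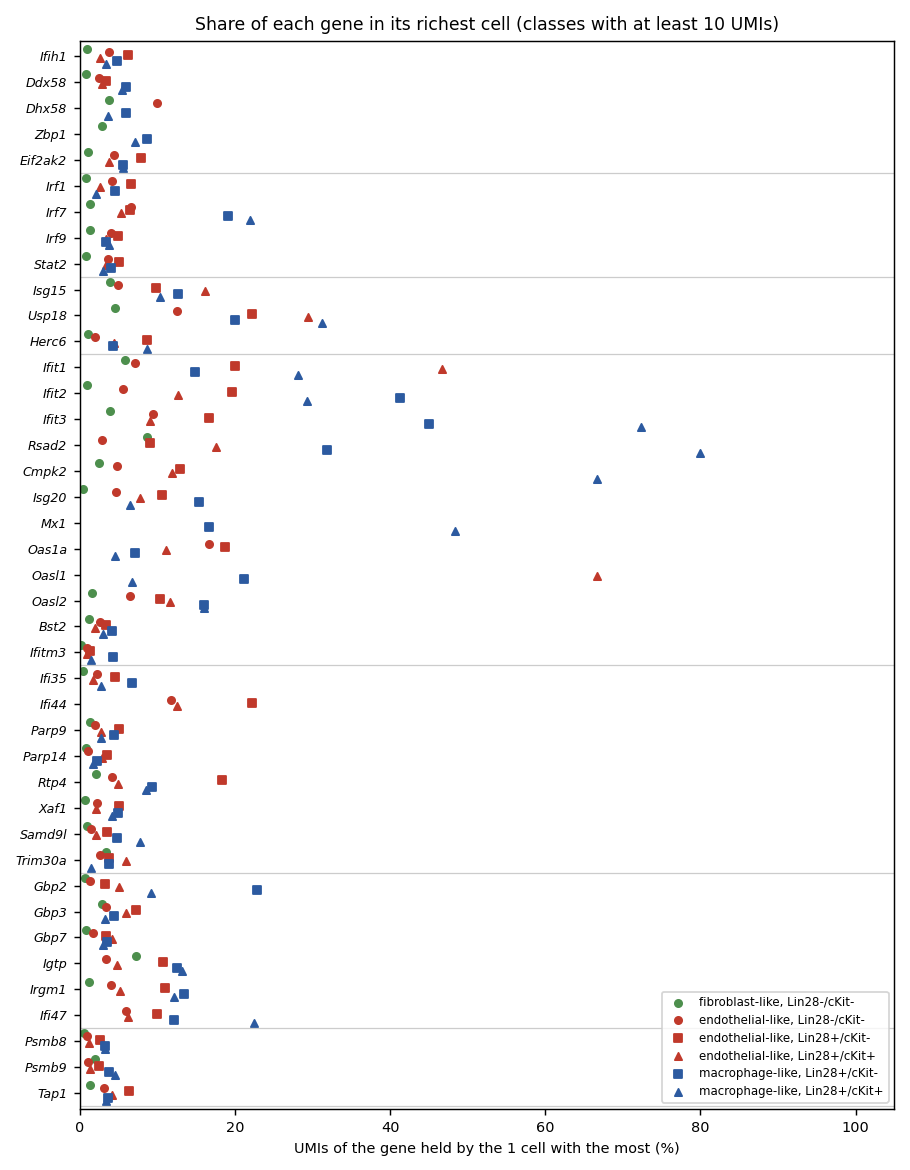
Percent of a gene's UMIs held by the 1 cell with the most, for each member with at least 10 UMIs in a class and library. Most points lie under 10%, and the points above 46% are Rsad2 (80%), Ifit3 (72.3%), Cmpk2 (66.7%) and Mx1 (48.4%) in macrophage-like cells and Oasl1 (66.7%) and Ifit1 (46.7%) in endothelial-like cells, all of Lin28+/cKit+. Macrophage-like cells of Lin28+/cKit- reach nearly that limit, with a largest share of 45%.

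Cells with a UMI for at least 5 of the 12 core genes were rare in each class and library. They were 16 of 2793 fibroblast-like cells (0.573%, exact binomial interval 0.328% to 0.929%). Among endothelial-like cells they were 18 of 867 (2.08%, 1.23% to 3.26%) in Lin28-/cKit-, 11 of 255 (4.31%, 2.17% to 7.59%) in Lin28+/cKit- and 9 of 458 (1.97%, 0.902% to 3.70%) in Lin28+/cKit+. Among macrophage-like cells they were 6 of 321 (1.87%, 0.689% to 4.02%) in Lin28+/cKit- and 9 of 643 (1.40%, 0.642% to 2.64%) in Lin28+/cKit+. The endothelial-like intervals of the 3 libraries overlap, and so do the macrophage-like ones. These cells held 10.8% of the core UMIs in fibroblast-like cells, 22.3%, 34.3% and 28.7% in endothelial-like cells and 16% and 26.7% in macrophage-like cells. A limit of 5 genes cuts a range and does not define a type: 36.8% of fibroblast-like cells, 43.7% to 54.9% of endothelial-like cells and 47.7% to 53.5% of macrophage-like cells had at least 1 core UMI. The cells with at least 5 core genes were deeper than their class at the median, by unlike amounts. Their medians were 11186 UMIs in fibroblast-like, 4263, 11502 and 6428 in endothelial-like and 26711 and 12118 in macrophage-like cells. The medians of the classes were 10155 UMIs, then 3909, 7620 and 5312, then 12580 and 9639. After thinning to 1000 UMIs 1 cell each was left in the endothelial-like and macrophage-like cells of Lin28+/cKit+ and 0 elsewhere.

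**Figure D5:**
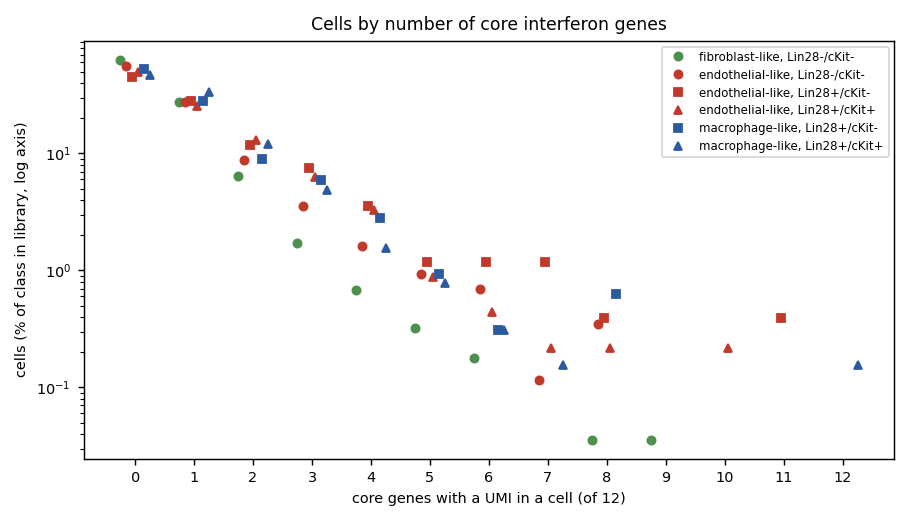
Percent of the cells of each class and library, on a log axis, by the number of the 12 core genes with a UMI; numbers with no cell have no point. Between 45.1% and 63.2% of cells have 0 core genes, and the cell with all 12 is macrophage-like in Lin28+/cKit+.

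By subtype, arterial-type endothelial-like cells had the highest core sums. They stood at 368 CPM in Lin28-/cKit- (146 cells) and 634 CPM in Lin28+/cKit+ (59 cells), against 239, 292 and 255 CPM in capillary-type cells of the 3 libraries. In Lin28+/cKit+ the single cell described above held 120 of the 237 arterial core UMIs (50.6%). In Lin28-/cKit- the richest arterial-type cell held 28 of 215 core UMIs. There Isg15 was 140.3 CPM in arterial-type and 48.3 CPM in capillary-type cells, and Ifi47 27.4 and 10 CPM, whereas Rsad2 went the other way at 35.9 and 71.8 CPM. The fibroblast subtypes were close together, with core sums of 68.3, 63.5 and 51.6 CPM in the G0s2, Inmt and adventitial types.

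Macrophage subtypes are described next. Inflammatory-type cells had core sums of 182 and 347 CPM in Lin28+/cKit- and Lin28+/cKit+, and resident-type cells 183 and 147 CPM. Behind these sums, 1 inflammatory-type cell held 64 of 339 core UMIs (18.9%) in the first library and 413 of 1611 (25.6%) in the second. The richest resident-type cells held 49 of 476 and 14 of 353. Ifitm3 stood at 850.0 and 809 CPM in resident-type cells and 412 and 471 CPM in inflammatory-type cells, so resident-type cells had more in both libraries. Samd9l stood at 23.8 and 25.4 against 11.2 and 6.46 CPM, the same way. Ifih1 went the other way, at 31.9 and 26.7 in resident-type against 44.5 and 44.3 CPM in inflammatory-type cells. Macrophage-like cells of Lin28+/cKit+ were also compared with those of Lin28+/cKit- within each subtype. In inflammatory-type cells Isg15, Ifit1, Ifit2, Ifit3, Rsad2 and Usp18 were called higher, with Isg15 at 1.77 (1.53 to 2.05) and Ifit3 at 60 UMIs against 0, and Irgm1 and Gbp2 lower, beside 2.11% of all genes called higher and 4.54% lower within the subtype. The richest cell held 47 of the 60 Ifit3 UMIs, 116 of 130 for Rsad2, 46 of 139 for Ifit2, 20 of 58 for Ifit1, 10 of 25 for Usp18 and 129 of 1020 for Isg15. In resident-type cells none was called higher, and Ifit1, Ifit2, Ifit3, Stat2, Gbp2 and Herc6 were called lower, with Ifit1 at 0.313 (0.155 to 0.591), beside 1.76% of all genes called higher and 3.66% lower. In Lin28+/cKit-, 1 resident-type cell held 9 of the 20 Ifit3 UMIs, 1 held 19 of 37 for Ifit2 and 1 held 23 of 59 for Gbp2, against at most 8 of 45 for Ifit1, 4 of 70 for Stat2 and 3 of 52 for Herc6. Isg15 was there at 0.915 (0.763 to 1.10). Inflammatory-type cells made up 150 of the 321 macrophage-like cells in Lin28+/cKit- and 438 of 643 in Lin28+/cKit+. Whether the subtypes differ in this ratio was not tested.

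Other genes of the pathway were taken from 3 lists, of 28 receptors and signalling genes, 10 ligands and 60 further targets, all distinct from the members. The receptor genes were present in every class. Ifnar1 stood at 30.5 CPM in fibroblast-like cells, 30.7, 37.6 and 25.6 CPM in endothelial-like cells, and 63.9 and 50.9 CPM in macrophage-like cells. Ifnar2 stood at 117 CPM in fibroblast-like cells, 84.9, 105.3 and 109.6 CPM in endothelial-like cells, and 139 and 135 CPM in macrophage-like cells. Ifngr1, a chain of the interferon gamma receptor, stood at 277 CPM in fibroblast-like cells, 268, 252 and 238 CPM in endothelial-like cells, and 261 and 274 CPM in macrophage-like cells, the most even of these genes. Ifnar1 was called higher in macrophage-like than endothelial-like cells of both Lin28+ libraries, at 1.70 and 1.99.

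Of the receptors and signalling genes measured between macrophage-like and endothelial-like cells, 10 of 25 were called higher and 3 lower in each Lin28+ library, beside 19.9% higher and 34.8% or 38% lower of all genes. The largest ratios were those of Tlr7, an endosomal RNA sensor, at 60.6 and 24.9, Ptpn6 (SHP-1), a phosphatase of blood cells, at 29.6 and 87.2, and Irf8, a myeloid factor, at 11.3 and 10.9. Tlr3 and Socs1 were among those called lower in both libraries, and were named after their values were seen. Between libraries, 0 of 23 were called in either comparison of endothelial-like cells and 0 of 25 in macrophage-like cells, where between 2.02% and 4.64% of all genes were called in a direction. Among the ligands, Ifnb1, the gene of interferon beta, had 0, 193 and 427 UMIs in the 3 libraries. Of these, 190 and 408 lay in macrophage-like cells of the Lin28+ libraries, at 42.5 and 57.9 CPM, and 2 and 1 in their endothelial-like cells. Ifng, the gene of interferon gamma, had 38 UMIs in 16 cells of Lin28-/cKit- and 0 in both other libraries.

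Among the further targets measured, 33 of 48 were called lower and 7 higher in fibroblast-like than in endothelial-like cells, beside 24.8% and 22.2% of all genes. Between macrophage-like and endothelial-like cells 21 of 47 were called lower and 13 higher in Lin28+/cKit-, and 25 of 49 and 13 in Lin28+/cKit+, nearer to the shares of all genes (34.8% and 19.9%, and 38% and 19.9%). Cxcl10, a chemokine that draws T cells, stood at 26.8 CPM in fibroblast-like cells, 2.21, 9.39 and 15.4 CPM in endothelial-like cells, and 804 and 1142 CPM in macrophage-like cells. Its ratios of macrophage-like to endothelial-like cells were 85.6 and 74.2. Ifi207 and Ifi209, of the family of DNA-binding p200 proteins, and Epsti1 were also called higher in macrophage-like cells, and Gbp4, a guanylate-binding protein, lower. In Lin28+/cKit- the ratios were 55.4 for Ifi207, 33.3 for Epsti1 and 0.0448 for Gbp4, and Ifi209 had 100 UMIs against 0. Between the Lin28+ libraries 1 of 46 was called higher (Ccl5) and 2 lower (Oas2 and Ube2l6) in macrophage-like cells. The shares of all genes were 2.02% and 4.55%, and Cxcl10 was at 1.42 (1.36 to 1.48), under the limit for a call. In endothelial-like cells 3 of 43 were called higher (B2m, Slfn8 and Cxcl10) and 2 lower (Ifitm1 and Pml) in Lin28+/cKit- against Lin28-/cKit-. There the shares of all genes were 3.85% and 4.64%, and Cxcl10 had 19 against 8 UMIs. These small numbers of calls do not set the list apart from all genes. The called genes in parentheses were chosen after their values were seen. In endothelial-like cells of Lin28+/cKit- macrophage markers summed to 426 CPM, 1.82% of their level in macrophage-like cells, against 9.40 CPM in Lin28-/cKit-. Their part in the Cxcl10 ratio was not tested.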

How the data were processed

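Single-cell 3' libraries of 3 sorted groups were analysed, 1 library per group. Cell Ranger (version not given), Seurat 4.0.2 and genome build mm10 are named in the submitters' processing notes; filters on cells and other settings were not given in the sources used here. The authors deposited natural log values. Undoing the log and subtracting 1 gave cells that each sum to 10000. Dividing by each cell's smallest such value, taken as 1 UMI, gave whole numbers for 100% of values within 0.01, and these recovered UMI counts were used.

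Each cell took the class whose markers had the highest mean natural log value among 17 marker sets, with at least 3 markers detected and other main sets below 0.5 of it; otherwise it was left unassigned. Subtypes came from the highest of 9 sets, each scaled by its 95th percentile in the class, with at least 2 markers and no limit on the second set. The second set stood above 0.9 of the first in 430, 58 and 85 cells of the 3 libraries. These counts include cells of the main classes that were given no subtype. No doublet caller was run; cells with 2 main marker sets were unassigned, and an alternative left out the 5% of cells with the most UMIs. UMIs were summed per class and library and given as CPM. Levels have exact Poisson, ratios exact conditional binomial and shares Clopper-Pearson intervals at 95% (scipy 1.17.1), which cover counting error only. Called genes needed 20 UMIs over both sides, a ratio of 1.5 and an interval without 1; all genes were measured by the same rule. The procedure was tested on simulated counts drawn independently for each gene. Those counts held no clumping of UMIs in single cells, so that test does not cover it.

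The members, gene lists and comparisons were chosen with earlier results of these data known. Any member may be named; for each comparison the 3 largest called ratios in each direction are given, and always Isg15, Ifit1, Ifit3, Irf7, Bst2, Ifitm3 and Psmb8. Outside the members, Ifnar1, Ifnar2, Ifngr1 and Cxcl10 are named whatever their values. The plan allowed at most 4 called genes of a list, and further called genes were named after their values were seen. Lin28a and Lin28b were not analysed here, and 1 gene of the pathway lists is not reported here by name. Alternatives covered scaling, pseudocount, minimum UMIs, cell filters, means over cells, clusters in place of marker sets (scanpy 1.11.5, leidenalg 0.10.2) and leaving out the richest cells; those on the richest core cell and on subtypes were added after seeing the data.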

Additional observations from a re-analysis of the deposited data

Results flagged for a closer look

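Oasl1 went in opposite directions in the 2 classes shared by the Lin28+ libraries. In endothelial-like cells its ratio of Lin28+/cKit+ to Lin28+/cKit- was 5.19, from 21 against 3 UMIs, and 14 of the 21 lay in 1 arterial-type cell. In macrophage-like cells the ratio was 0.577, from 30 against 33 UMIs, of which 7 lay in 1 cell of Lin28+/cKit-. The difference between the classes was not tested.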

How the results depend on the processing

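No paired analysis was possible because each group had 1 library and the labels give no replicate numbers. The median log2 ratio of the members in each of the 8 comparisons stayed between the medians of the genes' lower and upper bounds under every alternative run. That range is as wide as for a typical single gene, so staying inside it is a loose check that shows no stability of the median. With 4 core genes needed in place of 5, the share of cells was 1.25% in fibroblast-like cells, 3.69%, 7.84% and 5.24% in endothelial-like cells and 4.67% and 2.95% in macrophage-like cells. With 6 needed it was 0.251% in fibroblast-like cells, 1.15% in endothelial-like cells of Lin28-/cKit- and 0.622% in macrophage-like cells of Lin28+/cKit+, and it fell from 1.97% to 1.09% and from 1.87% to 0.935%, inside the intervals of the first values, in endothelial-like cells of Lin28+/cKit+ and macrophage-like cells of Lin28+/cKit-. After thinning to 1000 UMIs it was 0% in fibroblast-like cells, in endothelial-like cells of the first 2 libraries and in macrophage-like cells of Lin28+/cKit-, and 0.228% and 0.162% in endothelial-like and macrophage-like cells of Lin28+/cKit+. The richest endothelial-like cell of Lin28+/cKit+ then held 11.2% of core UMIs.

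Directions turned for the following genes, as log2 ratios of Lin28+/cKit+ over Lin28+/cKit-. Over whole libraries Ifit3 was at -0.025 without the cell with the most member UMIs on each side and at -0.39 without that with the most core UMIs. In macrophage-like cells Rsad2 was at -0.27 under either setting and Ifit3 at -0.82 under the second. In resident-type cells alone Ifit2 was at -0.92, Ifit3 at -1.88, Isg15 at -0.13 and Irgm1 at 0.067.

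Counts of calls moved by over 1.5 times in 30 of 180 cases. Beyond the main setting, shares of all genes were computed only with median-of-ratios scaling, without the richest core cells and within subtypes. In macrophage-like cells between the Lin28+ libraries, 4 higher and 5 lower became 7 and 1 with means over cells, 1 higher without the cell with the most member UMIs, 2 and 8 without that with the most core UMIs, 2 lower with median-of-ratios scaling, 3 lower without the deepest 5% of cells or with clusters, 2 lower in inflammatory-type and 0 higher in resident-type cells. Over whole libraries the 4 higher became 1 without either richest cell, and the 1 lower became 0 with either other scaling, means over cells or a pseudocount of 1 CPM. In endothelial-like cells the 2 higher of Lin28+/cKit- became 1 with means over cells, a minimum of 50 UMIs or the pseudocount, and 1 lower appeared with means over cells and in capillary-type cells. There the 1 higher of Lin28+/cKit+ became 0 with a minimum of 50 UMIs, without either richest cell and in capillary-type cells, where 1 was lower, and 2 with clusters. Between classes, 7 higher became 4 in Lin28+/cKit- with a minimum of 50 UMIs, and 6 higher and 26 lower became 10 and 17 in Lin28+/cKit+ with median-of-ratios scaling. The cause of these shifts was not tested. Genes such as Mx1, Ifi44 and Zbp1 had few UMIs in some classes and libraries, which leaves their ratios there uncertain.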

Other observations

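Transcripts of interferon beta were spread over many macrophage-like cells, unlike those of Rsad2. A UMI of Ifnb1 was found in 44 of 321 macrophage-like cells of Lin28+/cKit- (13.7%) and in 116 of 643 of Lin28+/cKit+ (18.0%). The cell with the most held 34 of 190 UMIs (17.9%) in the first library and 17 of 408 (4.17%) in the second. In Lin28+/cKit+ 104 of the 116 cells were of the inflammatory type, and in Lin28+/cKit- 26 of the 44.

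These counts were looked at after the levels were seen, and cells are not replicates, so they have no test. Macrophage-like cells with a UMI of Ifnb1 had Isg15 at 283 CPM in Lin28+/cKit- and 439.5 CPM in Lin28+/cKit+, against 70.0 and 105.3 CPM in cells without one. Without the cell richest in core UMIs the values for cells with Ifnb1 were 221 and 358 CPM. Cells with a UMI of Ifnb1 were deeper, with medians of 16795.5 and 10682.5 UMIs against 11836 and 9449. The cell of Lin28+/cKit+ with all 12 core genes held 17 Ifnb1 UMIs and 12 of Cxcl10. The cell of Lin28+/cKit- with 63 Isg15 UMIs held 1 of Ifnb1 and 212 of Cxcl10.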
